A study of Mus musculus with 3 samples.

Results

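Collagens and the matrix genes of hepatic stellate cells were followed in the liver of mice lacking apolipoprotein E, on 3 Affymetrix mouse arrays with 1 array per diet. The genes were Col1a1, Col1a2, Col3a1, Col5a2, Col4a1, Col4a2, Bgn, Dcn and Timp1, and every probe set whose annotated symbol was one of these 9 names was taken, each kept apart. That gave 9 of the 8251 genes named on the array, and 15 of its 12488 probe sets, 10833 of which had a single gene symbol. Probe sets of a gene are numbered from the highest mean log2 signal down. The t10,c12-CLA group received the t10,c12 isomer of conjugated linoleic acid (CLA), the c9,t11-CLA group the c9,t11 isomer, and the control group linoleic acid, each at 1.0% of the diet by weight for 12 weeks. The isomers differ in the position and geometry of their conjugated double bonds. All mice were male apoE knockouts on a C57BL/6JxOLA129 background, 3 months old when assigned to semi-purified diets with 30% of energy from fat. The sample labels call the diet a western diet, and this difference was not resolved here. Diets were assigned to 9 mice for t10,c12-CLA, 10 for c9,t11-CLA and 10 for control. The labels do not say whether the RNA on an array came from 1 mouse or from several. No wild-type liver was included, so each value belongs to a liver that lacks apolipoprotein E.

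Fibrillar collagens form the tensile fibres of the portal tracts and of scar tissue, whereas type IV collagen forms the sheet-like network of basement membranes. In the liver the fibrillar collagens come mainly from stellate cells, the vitamin A-storing cells of the space between hepatocytes and sinusoids, and from portal fibroblasts, and both make more of them when activated. Biglycan and decorin are small leucine-rich proteoglycans that bind collagen fibrils, and TIMP1 inhibits the metalloproteinases that degrade matrix.

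With 1 array per diet no difference could be set against the spread between mice, and no test was run. Values are MAS5 signals, a hybridisation intensity on a linear scale, with a 2%-trimmed mean of 1501 on each array. Signals at or below 490.3, the median of all signals pooled, were treated as a floor, and a gene above it on only 1 of a pair of arrays is given as at least N-fold apart. The size used for counting was 2-fold, a log2 difference of 1. A technical spread came from pairs of probe sets of the same gene, and gave an SD of a single log2 difference of 0.40 between t10,c12-CLA and control, 0.49 between c9,t11-CLA and control and 0.50 between the isomers. It contains no variation between mice. It also leaves out array effects that both probe sets of a gene share, since they were read on the same arrays. The ratio of 3′ to 5′ signal of beta-actin, a sign of RNA integrity, was 1.35 for t10,c12-CLA, 1.89 for c9,t11-CLA and 1.40 for control. That of Gapdh was 0.78 for t10,c12-CLA, 0.98 for c9,t11-CLA and 1.06 for control. That of Pcx, pyruvate carboxylase, was 6.71 for t10,c12-CLA, 8.41 for c9,t11-CLA and 18.3 for control. Control thus stood apart by Pcx alone, and c9,t11-CLA was the highest by beta-actin. The part of RNA integrity in the differences was not tested. In a piece of whole liver, more cells of a type and more RNA per cell cannot be told apart.

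The sequences in front of the genes are shown first, for the 4 genes with a promoter entry outside the type IV collagen pair, because their signals differed between the diets by at least 1 probe set. RefSeq (GRCm38.p6) gave a promoter for 6 of the 9 genes. Each line is the 250 bases before the annotated start, 5′ to 3′ on the strand of the gene. Capitals mark the motifs searched on both strands, which were the TATA box (TATAAA), the CCAAT box (CCAAT), the GC box (GGGCGG), a short Smad motif (GTCTG) and an AP-1 site (TGANTCA). A match describes the letters in this window and is not a binding site.
Col1a2 (chr6:4505368-4505617, plus strand): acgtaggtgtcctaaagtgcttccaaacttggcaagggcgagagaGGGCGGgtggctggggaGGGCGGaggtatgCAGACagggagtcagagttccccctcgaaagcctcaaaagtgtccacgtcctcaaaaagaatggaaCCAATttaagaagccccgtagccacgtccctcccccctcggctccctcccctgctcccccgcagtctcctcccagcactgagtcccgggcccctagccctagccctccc
Col3a1 (chr1:45311288-45311537, plus strand): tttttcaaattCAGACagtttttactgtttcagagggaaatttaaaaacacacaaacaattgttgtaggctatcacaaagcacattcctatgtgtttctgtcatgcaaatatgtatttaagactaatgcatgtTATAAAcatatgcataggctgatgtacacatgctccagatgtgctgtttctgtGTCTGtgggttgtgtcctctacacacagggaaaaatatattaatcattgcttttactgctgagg
Bgn (chrX:73483351-73483600, plus strand): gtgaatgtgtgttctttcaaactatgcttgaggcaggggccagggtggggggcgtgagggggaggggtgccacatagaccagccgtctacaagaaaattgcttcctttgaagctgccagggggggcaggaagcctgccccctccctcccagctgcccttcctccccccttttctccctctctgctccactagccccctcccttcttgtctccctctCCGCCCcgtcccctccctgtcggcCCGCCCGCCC
Timp1 (chrX:20869916-20870165, plus strand): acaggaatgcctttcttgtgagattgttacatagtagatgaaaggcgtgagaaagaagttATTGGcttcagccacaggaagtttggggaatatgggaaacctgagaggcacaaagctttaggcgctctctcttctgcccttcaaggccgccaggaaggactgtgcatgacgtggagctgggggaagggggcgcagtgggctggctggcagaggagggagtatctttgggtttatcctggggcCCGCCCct

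No motif was found in front of all 6 genes. The TATA box was found in front of Col3a1 alone of the 6 genes and in 13.0% of the 27025 promoters searched. A CCAAT box stood in front of Col1a2, Timp1, Col4a1 and Col4a2, and in 34.5% of all promoters. GC boxes stood in front of Col1a2, Col4a2, Bgn and Timp1, with 2, 2, 3 and 1 matches, 2 of those of Bgn overlapping each other, and in 32.9% of all promoters. The Smad motif had 2 matches in front of Col3a1, 1 in front of Col1a2 and 1 in front of Col4a2, and occurred in 42.1% of all promoters. None of the 6 windows held the AP-1 letters, found in 6.87% of promoters. The Col3a1 window was also the poorest in G and C, at 35.2%, against 62.0% for Col1a2, 64.4% for Bgn, 54.4% for Timp1 and a median of 52.0% over all promoters.

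Col4a1 and Col4a2 lie head to head on chromosome 8 and are read in opposite directions. Their annotated starts are 21 bases apart, and the windows of 250 bases before each start do not overlap. The 30 bases around both starts, on the plus strand in the direction of Col4a2, are shown because the pair is compared below. Motifs are not marked in this line, which holds the letters of the GC box (GGGCGG) in lower case.
Col4a1 and Col4a2 (chr8:11312801-11312830, plus strand): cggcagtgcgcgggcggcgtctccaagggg

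In each comparison 11 of the 15 probe sets were above the floor on at least 1 of the arrays. On the t10,c12-CLA array, 4 of these 11 were at least 2-fold brighter than on the control array and none was 2-fold dimmer. Those 4 belonged to Col1a1, Col1a2, Bgn and Col4a2. Over the whole array, 2.51% of 5968 probe sets above the floor on at least 1 of the arrays were 2-fold higher and 1.94% were 2-fold lower. Against the c9,t11-CLA array, 6 of the 11 were at least 2-fold brighter on t10,c12-CLA, those of Col1a1, Col1a2, Col3a1, Col4a1, Col4a2 and Timp1. None was 2-fold dimmer. In that comparison 3.88% of 6295 probe sets were 2-fold higher and 3.16% 2-fold lower. Between c9,t11-CLA and control, Timp1 was 2-fold lower and no probe set was 2-fold higher, where 3.02% of 6253 probe sets were 2-fold lower and 3.89% 2-fold higher. With probe sets averaged to 1 value per gene, 2 genes were 2-fold higher on t10,c12-CLA than on control, 3 were higher than on c9,t11-CLA, and Timp1 was no longer counted. That average included probe sets below the floor on every array, set to the floor, such as the second of Timp1. With the brightest probe set per gene Timp1 was still counted between c9,t11-CLA and control. With the floor raised to the 75th percentile, 1510.9, the count between the isomers was 3 and that for c9,t11-CLA against control 0.

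Of the 15 probe sets, 11 from 8 genes were above the floor on at least 1 array, and 9 were above it on all 3. The t10,c12-CLA array gave the highest of the 3 signals in 9 of the 11, the c9,t11-CLA array in none and the control array in 2, the exceptions being Dcn and the first Col1a2 probe set. Over all 6486 probe sets with a single symbol above the floor on at least 1 array, t10,c12-CLA was highest in 29.4%, c9,t11-CLA in 41.3% and control in 29.3%. The lowest signal lay on c9,t11-CLA in 7 of the 11 and on control in 4, against 32.7% and 34.0% of all such probe sets. The full order with t10,c12-CLA above control and control above c9,t11-CLA was found in 5 of the 11, for Col1a2, Col3a1, Col4a1, Timp1 and the second Col1a1 probe set, and in 16.5% of all.

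**Figure D1:**
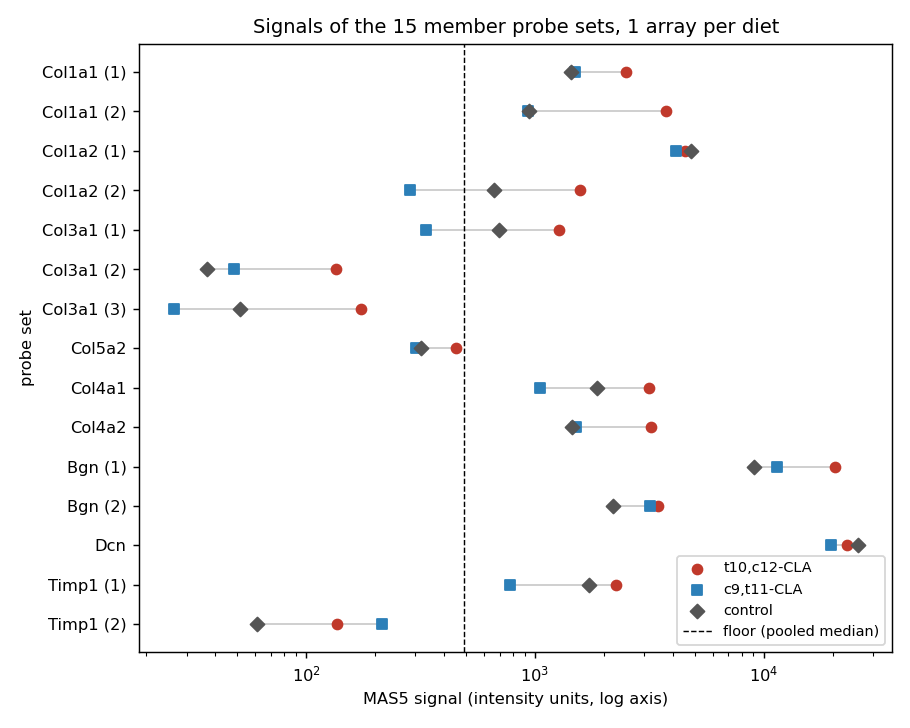
MAS5 signal (intensity units, log axis) of each of the 15 probe sets on the t10,c12-CLA (red circle), c9,t11-CLA (blue square) and control (grey diamond) array, 1 array per diet, with no error bar because no diet had a second array. Numbers in parentheses tell probe sets of a gene apart, and the dashed line is the floor of 490.3, to the right of which the red circle is the highest mark in 9 of 11 rows.

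Type I collagen, the main fibrillar collagen, is built from the products of Col1a1 and Col1a2. The first Col1a1 probe set gave 2511 on t10,c12-CLA, 1496 on c9,t11-CLA and 1442 on control. The second gave 3747 on t10,c12-CLA, 929.9 on c9,t11-CLA and 940.5 on control. In both, the t10,c12-CLA array stood alone and the other arrays were close together. The second was 3.98-fold higher than control and 4.03-fold higher than c9,t11-CLA, so that 0.235% and 0.381% of all tested probe sets had a difference as high. The first was 1.74-fold higher than control and 1.68-fold higher than c9,t11-CLA, less than 2-fold in both cases. The log2 differences between c9,t11-CLA and control were 0.05 and -0.02, far inside the technical SD of 0.49.

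The probe sets of Col1a2 disagreed. The second gave 1576 on t10,c12-CLA, 283.5 on c9,t11-CLA and 661.5 on control. It was 2.38-fold higher on t10,c12-CLA than on control and at least 3.21-fold higher than on c9,t11-CLA, where it lay below the floor. The first probe set, the brighter, gave 4505 on t10,c12-CLA, 4151 on c9,t11-CLA and 4815 on control. Its log2 differences were -0.10 between t10,c12-CLA and control and 0.12 between the isomers, both inside the technical SD. Its identifier carries the mark for probes that did not meet all the rules of probe selection, which the second does not.

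Type III collagen, encoded by Col3a1, assembles with type I in the same fibres. Its first probe set gave 1279 on t10,c12-CLA, 335.3 on c9,t11-CLA and 694.6 on control. It was 1.84-fold higher on t10,c12-CLA than on control and at least 2.61-fold higher than on c9,t11-CLA. The other Col3a1 probe sets were below the floor on every array, with 135.3 and 174.0 on t10,c12-CLA, 48.5 and 26.3 on c9,t11-CLA, and 36.7 and 51.3 on control. In both of them t10,c12-CLA again held the highest reading, but signals this low have no order and no fold is given. Col5a2, a chain of the type V collagen found within type I fibres, was likewise below the floor, at 449.6 on t10,c12-CLA, 300.6 on c9,t11-CLA and 317.7 on control.

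The basement membrane chains Col4a1 and Col4a2, which share their start region, were both highest on t10,c12-CLA but parted on the other diets. Col4a1 gave 3140.1 on t10,c12-CLA, 1056 on c9,t11-CLA and 1866 on control. Col4a2 gave 3219.8 on t10,c12-CLA, 1507 on c9,t11-CLA and 1452 on control. Relative to control, t10,c12-CLA was 1.68-fold higher for Col4a1 and 2.22-fold higher for Col4a2. The isomers differed 2.97-fold for Col4a1 and 2.14-fold for Col4a2, with t10,c12-CLA above c9,t11-CLA. On c9,t11-CLA the log2 difference from control was -0.82 for Col4a1, past 1 technical SD, and 0.05 for Col4a2, inside it. With the arrays scaled to equal medians the value of Col4a1 became -1.02, past 2-fold, and that of Col4a2 -0.14.

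**Figure D2:**
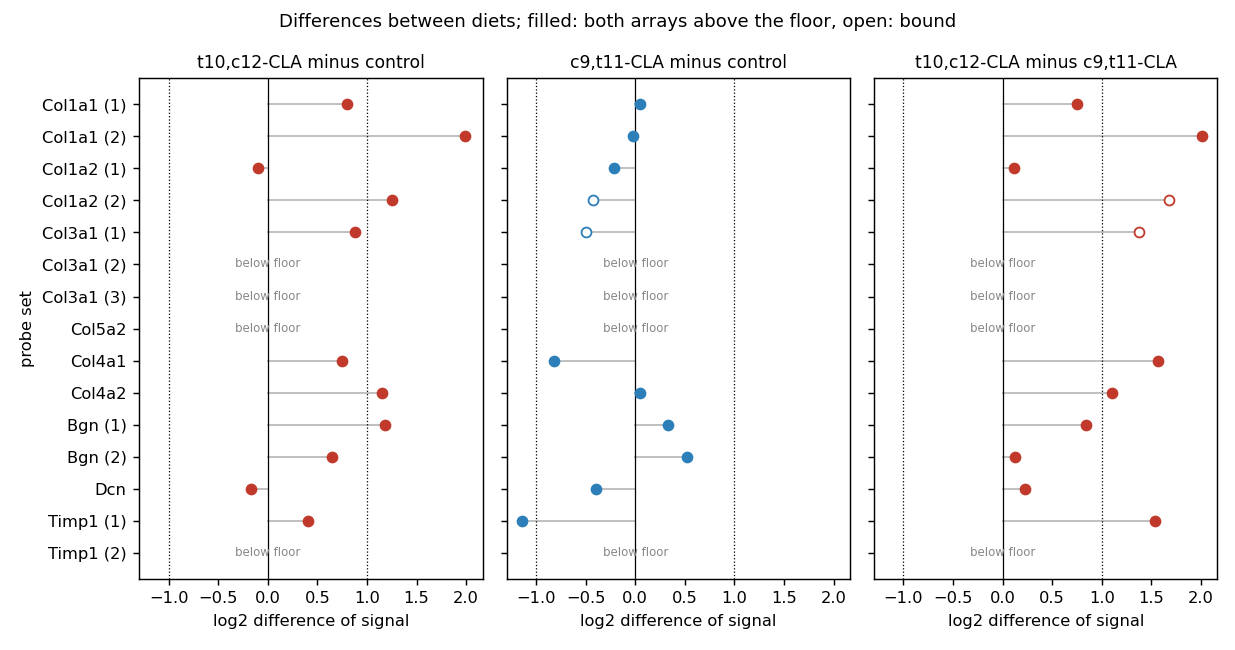
Log2 difference of signal for each of the 15 probe sets between t10,c12-CLA and control (left), c9,t11-CLA and control (middle) and t10,c12-CLA and c9,t11-CLA (right), from 1 array per diet and with no error bar. Filled points had both arrays above the floor, open points are bounds because 1 array was below it, and dotted lines mark 2-fold. In the right panel all 11 points lie above 0, from 0.12 to 2.01.

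Biglycan was highest on t10,c12-CLA by both of its probe sets. Its first probe set gave 20434 on t10,c12-CLA, 11404 on c9,t11-CLA and 9042 on control, and was 2.26-fold higher on t10,c12-CLA than on control and 1.79-fold higher than on c9,t11-CLA. Its second gave 3454 on t10,c12-CLA, 3167 on c9,t11-CLA and 2204 on control, and differed 1.57-fold and 1.09-fold in the same comparisons. Both probe sets had control lowest, and the second, whose identifier marks possible cross-hybridisation within a gene family, placed c9,t11-CLA next to t10,c12-CLA. The log2 difference between c9,t11-CLA and control was 0.33 by the first and 0.52 by the second.

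Decorin, the related proteoglycan, differed little between the diets. It gave 23003 on t10,c12-CLA, 19600.2 on c9,t11-CLA and 25878 on control. Control was highest, and the log2 differences of -0.17 between t10,c12-CLA and control, -0.40 between c9,t11-CLA and control and 0.23 between the isomers were all inside the technical SD. For pairs whose dimmer probe set was brighter than 1961.2, that SD was 0.32, 0.40 and 0.38 in the same order, so that the value for c9,t11-CLA equalled it.

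Timp1 differed mainly through a low value on c9,t11-CLA. Its first probe set gave 2266 on t10,c12-CLA, 777.4 on c9,t11-CLA and 1717 on control. It was 2.21-fold lower on c9,t11-CLA than on control, and 2.08% of all tested probe sets were as low. Between t10,c12-CLA and control it differed 1.32-fold, a log2 difference of 0.40 equal to the technical SD. Between the isomers it was 2.91-fold higher on t10,c12-CLA. Its second probe set was below the floor, at 136.1 on t10,c12-CLA, 215.2 on c9,t11-CLA and 60.9 on control, and carries the same mark for relaxed probe selection as the first of Col1a2.

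Set against the technical spread, 5 of the 11 probe sets above the floor differed by more than 2 SD between t10,c12-CLA and control, 1 did between c9,t11-CLA and control, and 6 did between the isomers, with bounds taken at their value. Over the whole array, 8.98%, 7.42% and 7.04% of tested probe sets did so, in either direction and in the same order. The median log2 difference over all 15, with signals below the floor set to it, was 0.65 between t10,c12-CLA and control, 0.00 between c9,t11-CLA and control and 0.75 between the isomers. Over the probe sets above the floor on at least 1 of the arrays compared, it was 0.80, -0.21 and 1.10 for the 11 and 0.01, 0.05 and -0.05 for the whole array. The comparisons of both isomers with control share the control array. Just past the 2-fold size between t10,c12-CLA and control lay Col4a2 at 1.15, and just short of it Col3a1 at 0.88.

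**Figure D3:**
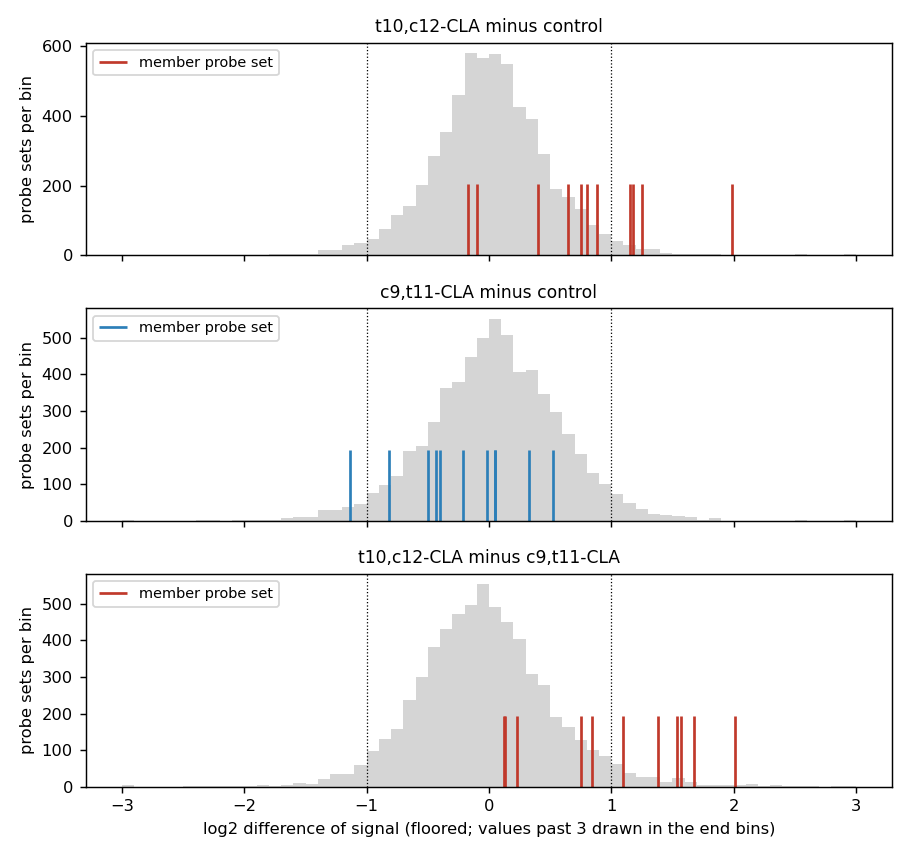
Number of probe sets with a single gene symbol per bin of 0.1 in log2 difference of signal (grey bars), for t10,c12-CLA minus control (top), c9,t11-CLA minus control (middle) and t10,c12-CLA minus c9,t11-CLA (bottom), with coloured lines at the 11 collagen and matrix probe sets above the floor and dotted lines at 2-fold. The coloured lines run from -0.17 to 1.99 in the top panel, from -1.14 to 0.52 in the middle and from 0.12 to 2.01 at the bottom.

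Other collagens had lower medians than the 9 genes between t10,c12-CLA and control and between the isomers. The array held 24 of 29 listed genes in 33 probe sets. Those above the floor on at least 1 array were 16 between t10,c12-CLA and control, 16 between c9,t11-CLA and control and 18 between the isomers. None was 2-fold higher or lower in any of the 3 comparisons. The array-wide shares ran from 1.94% to 3.89%, so none out of so few is close to them. Their median over probe sets above the floor was 0.25 between t10,c12-CLA and control, 0.29 between c9,t11-CLA and control and -0.10 between the isomers. Col18a1, whose type XVIII collagen is abundant in liver basement membranes, gave 12069 on t10,c12-CLA, 17875 on c9,t11-CLA and 12623 on control by 1 of its probe sets. It was thus highest on c9,t11-CLA, as no probe set of the 9 genes above the floor was. Col5a1, the partner chain of Col5a2, gave 1723 on t10,c12-CLA, 2094 on c9,t11-CLA and 1361 on control, and Col6a1, of the microfibrillar type VI collagen, 2025 on t10,c12-CLA, 1594 on c9,t11-CLA and 1530 on control.

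Among other matrix proteins, 32 of 41 listed genes were present in 47 probe sets. None of the 15 above the floor on at least 1 of the arrays was 2-fold apart between t10,c12-CLA and control. Of these, 12 were higher and 3 lower on t10,c12-CLA, with a median log2 difference of 0.37. Between the isomers 11 were higher and 8 lower on t10,c12-CLA, with a median of 0.32. Lumican, Lum, a proteoglycan of the same family as biglycan and decorin, gave 1684 on t10,c12-CLA, 696.3 on c9,t11-CLA and 1188 on control, 2.42-fold higher on t10,c12-CLA than on c9,t11-CLA. Thrombospondin 3, Thbs3, was above the floor on c9,t11-CLA alone, at 149.0 on t10,c12-CLA, 1026 on c9,t11-CLA and 450.6 on control, at least 2.09-fold lower on t10,c12-CLA than on c9,t11-CLA. Fibronectin, Fn1, gave 7573 on t10,c12-CLA, 8575 on c9,t11-CLA and 5922 on control, and elastin, Eln, 2209 on t10,c12-CLA, 1559 on c9,t11-CLA and 1711 on control.

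Genes that fold, modify and cross-link collagen were mostly alike on the arrays. Of 21 listed genes 12 were present, in 19 probe sets. Above the floor on at least 1 array were 16 between t10,c12-CLA and control and 15 between c9,t11-CLA and control. None of these was 2-fold apart in either comparison. Their median over probe sets above the floor was 0.03 between t10,c12-CLA and control, -0.01 between c9,t11-CLA and control and 0.22 between the isomers. P4ha2, a prolyl hydroxylase subunit, was 2.30-fold lower on t10,c12-CLA than on c9,t11-CLA by a probe set marked for cross-hybridisation and 1.60-fold higher by the other. The collagen chaperone Serpinh1 was above the floor on control alone, at 429.3 on t10,c12-CLA, 193.2 on c9,t11-CLA and 609.8 on control, and it is named here after its values were seen.

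Matrix-degrading enzymes and their inhibitors held 23 of 27 listed genes in 31 probe sets. Timp3, the inhibitor that stays bound to matrix, gave 1861 on t10,c12-CLA, 683.0 on c9,t11-CLA and 680.7 on control, 2.73-fold higher on t10,c12-CLA than on control. Timp3 thus had t10,c12-CLA alone and high, whereas Timp1 had c9,t11-CLA alone and low. Macrophage metalloelastase, Mmp12, gave 11148 on t10,c12-CLA, 2991 on c9,t11-CLA and 7486 on control by its brighter probe set, 3.73-fold higher on t10,c12-CLA than on c9,t11-CLA. Its other probe set differed 1.66-fold, and both carry a mark. Of the 31 probe sets, 11 were above the floor on t10,c12-CLA or c9,t11-CLA. Of these, 3 were 2-fold higher on t10,c12-CLA than on c9,t11-CLA and none was 2-fold lower. The third belonged to Ctsb, cathepsin B, whose brightest probe set differed 1.11-fold.

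The list of TGF-beta and PDGF signalling, pathways that drive matrix production in stellate cells, held 32 of 33 genes in 39 probe sets. Between t10,c12-CLA and control, 3 of the 24 above the floor on at least 1 array were 2-fold higher and none 2-fold lower. Between the isomers, 5 of 25 were 2-fold higher and none 2-fold lower, a Pdgfra probe set falling just short at -1.0 after rounding. Connective tissue growth factor, Ccn2, a TGF-beta target, gave 1542 on t10,c12-CLA, 507.8 on c9,t11-CLA and 558.0 on control, 2.76-fold higher on t10,c12-CLA than on control. Tgfb1i1, an adaptor protein of focal adhesions, gave 1826 on t10,c12-CLA, 647.2 on c9,t11-CLA and 837.2 on control, 2.18-fold higher than control. Follistatin, Fst, which binds activins, was above the floor on t10,c12-CLA alone, at 1160 on t10,c12-CLA, 351.8 on c9,t11-CLA and 305.1 on control. In all 3, as in Col1a1, the t10,c12-CLA array was high and the other arrays were lower and differed by less than the technical SD or lay below the floor. The median of the list over probe sets above the floor was 0.11 between t10,c12-CLA and control, -0.08 between c9,t11-CLA and control and 0.05 between the isomers.

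Collagen and matrix receptors were mostly alike on the 3 arrays. Of 19 listed genes 13 were present, in 22 probe sets. None of the 13 probe sets above the floor on at least 1 of the arrays was 2-fold apart between t10,c12-CLA and control. Integrin beta 1, Itgb1, the common chain of the collagen-binding integrins, gave 16129 on t10,c12-CLA, 10689 on c9,t11-CLA and 10472 on control by its brighter probe set. Itgav, an integrin alpha chain, gave 6015 on t10,c12-CLA, 5997 on c9,t11-CLA and 4522 on control by its brightest probe set, and by another it was above the floor on t10,c12-CLA and control but not on c9,t11-CLA.

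**Figure D4:**
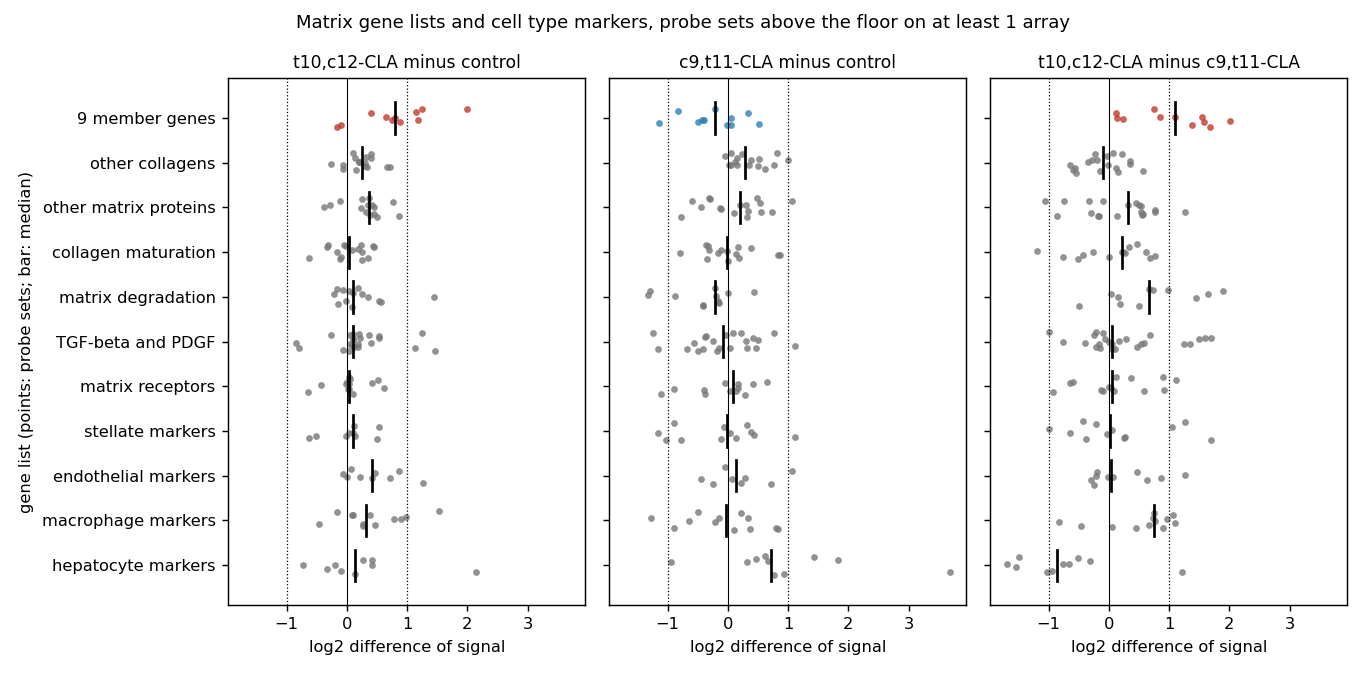
Log2 difference of signal for the probe sets of the 9 genes (top row, coloured) and of other matrix lists and cell type markers (grey), for t10,c12-CLA minus control (left), c9,t11-CLA minus control (middle) and t10,c12-CLA minus c9,t11-CLA (right). Points are probe sets above the floor on at least 1 of the arrays, bars their median and dotted lines 2-fold. The bar of the 9 genes stands at 0.80 in the left panel, -0.21 in the middle and 1.10 in the right, that of other collagens at 0.25, 0.29 and -0.10.

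Markers of the stellate cell itself were mixed. The array held 15 of 22 listed genes in 21 probe sets, 9 of which were below the floor on all 3 arrays. Their summed signal was 11618 on t10,c12-CLA, 10358 on c9,t11-CLA and 11902 on control, and their median log2 difference over probe sets above the floor was 0.10 between t10,c12-CLA and control and 0.01 between the isomers. Between the isomers 12 of the 21 probe sets were above the floor on at least 1 array. Of these, 3, of Pdgfra, Lum and Tagln, were 2-fold higher on t10,c12-CLA. None was counted as 2-fold lower, but another Pdgfra probe set fell only just short, with a log2 difference of -1.0 after rounding. Between t10,c12-CLA and control none was 2-fold apart. Reelin, Reln, is a protein secreted by stellate cells in the liver. By its brighter probe set it gave 2374 on t10,c12-CLA, 1970.4 on c9,t11-CLA and 3671 on control, lower on both CLA diets than on control. Its other probe set was above the floor on c9,t11-CLA alone, at 350.9 on t10,c12-CLA, 639.1 on c9,t11-CLA and 360.4 on control. Desmin, Des, the intermediate filament of stellate and muscle cells, gave 351.9 on t10,c12-CLA, 768.0 on c9,t11-CLA and 698.9 on control. Nestin, Nes, gave 683.7 on t10,c12-CLA, 576.7 on c9,t11-CLA and 623.7 on control by its brighter probe set. Vimentin, Vim, was above the floor on both CLA diets but not on control, at 525.4 on t10,c12-CLA, 613.9 on c9,t11-CLA and 204.8 on control. Smooth muscle actin, Acta2, the usual marker of stellate cell activation, was near or below the floor, at 507.8 on t10,c12-CLA, 82.0 on c9,t11-CLA and 512.3 on control. The glial filament protein Gfap was above the floor only on c9,t11-CLA, at 500.6, by 1 of its probe sets. Acta2 and Gfap were chosen as defining markers.

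Pdgfra and Tagln, like Lum above, were lowest on c9,t11-CLA, Pdgfra by its brighter probe set alone. The PDGF receptor alpha, Pdgfra, gave 1986 on t10,c12-CLA, 615.4 on c9,t11-CLA and 1372 on control by its brighter probe set, 3.23-fold higher on t10,c12-CLA than on c9,t11-CLA. A second Pdgfra probe set gave 531.6 on t10,c12-CLA, 1063 on c9,t11-CLA and 158.7 on control. It thus pointed the other way between the isomers, by just under 2-fold. Transgelin, Tagln, an actin-binding protein of contractile cells, gave 1089 on t10,c12-CLA, 527.3 on c9,t11-CLA and 1066 on control. It was 2.06-fold higher on t10,c12-CLA than on c9,t11-CLA and 1.02-fold higher than on control.

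Markers of other liver cells also differed between the arrays. The 16 macrophage probe sets summed to 98743 on t10,c12-CLA, 60517 on c9,t11-CLA and 68462 on control, and 2 were 2-fold higher and none 2-fold lower on t10,c12-CLA than on c9,t11-CLA. In that comparison 10 were higher and 2 lower, with a median log2 difference of 0.74. Against control 10 were also higher and 2 lower, with a median of 0.33. There Cd14 was the 1 probe set 2-fold higher, at 4495 on t10,c12-CLA, 2718 on c9,t11-CLA and 1562 on control. The 17 endothelial probe sets, from cells that also make type IV collagen, summed to 21353 on t10,c12-CLA, 16289 on c9,t11-CLA and 16293 on control. Von Willebrand factor, Vwf, was above the floor on t10,c12-CLA alone, at 1178, against 253.1 on c9,t11-CLA and 269.2 on control, and its other probe set was below the floor on every array. As a list the endothelial markers had 5 probe sets higher and 5 lower on t10,c12-CLA than on c9,t11-CLA, with a median log2 difference of 0.03, and 7 higher and 1 lower than on control, with a median of 0.42. Pecam1, an endothelial adhesion protein, gave 894.2 on t10,c12-CLA, 1019.7 on c9,t11-CLA and 181.7 on control, and Cdh5, the endothelial cadherin, 1495 on t10,c12-CLA, 1762 on c9,t11-CLA and 1079.6 on control. The 10 hepatocyte probe sets summed to 235472 on t10,c12-CLA, 455539 on c9,t11-CLA and 238215 on control, and 9 of the 10 were lower on t10,c12-CLA than on c9,t11-CLA. The 8 probe sets of smooth muscle markers summed to 3793 on t10,c12-CLA, 4412 on c9,t11-CLA and 4622 on control. An endothelial probe set, of Tie1, was equal on t10,c12-CLA and control, at 749.0. Below the floor on all 3 arrays were 4 of the 16 macrophage, 7 of the 17 endothelial and 4 of the 8 smooth muscle probe sets. The part of these cell markers in the differences of the 9 genes was not tested.

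Most probe sets of the biliary, mesothelial, skeletal muscle and lymphocyte lists were below the floor. Biliary markers were below the floor on all 3 arrays in 7 of 8 probe sets, mesothelial markers in 4 of 5, skeletal muscle markers in 8 of 11, lymphocyte markers in 6 of 9 and adipocyte markers in 3 of 6. The exocrine pancreas and erythroid lists were above the floor in most probe sets and close on the 3 arrays. The 4 probe sets of exocrine pancreas summed to 6667 on t10,c12-CLA, 6551 on c9,t11-CLA and 6869 on control, and the 3 erythroid probe sets to 37910.0 on t10,c12-CLA, 36658 on c9,t11-CLA and 36661 on control.

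The genes nearest in pattern were sought by the distance between their log2 differences from control and the medians of the 9 collagen and matrix probe sets above the floor on all arrays, which were 0.75 on t10,c12-CLA and -0.02 on c9,t11-CLA. Among 4147 other genes, the nearest 5 were Itm2c, Sptan1, Rogdi, Mark2 and Numa1, at distances of 0.016 to 0.033. Itm2c gave 4780 on t10,c12-CLA, 2854 on c9,t11-CLA and 2866 on control. With only 3 arrays this measure separates little, since 1577 genes, 38.0%, lay as near as the median of those probe sets themselves, at 0.81.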

How the data were processed

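Liver RNA (8 µg per array, biotin-labelled cRNA, per the labels' protocols) was hybridised to 3 arrays, 1 per diet. The deposited values are MAS5 signal intensities made by the authors, per the submitters' processing notes, which name no version. Detection calls were not used here. All 3 columns were used without further scaling. Precision is limited by the number of arrays.

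Gene symbols came from the platform annotation, updated through Entrez identifiers in a RefSeq table (GRCm38.p6). Of 12488 probe sets 10833 had 1 symbol, 10817 of them in RefSeq, 396 had several, 1193 had none, and 66 were array controls. Those without a single symbol were left out of gene counts. The 18 gene lists and the 9 genes were chosen with earlier results of these data known. Eligible for naming from each list were up to 6 genes at least 2-fold apart and up to 4 of the brightest others, and not all are named. Left unnamed in the results, though at least 2-fold apart in some comparison, were among others Cyp2e1, Alb, Acvrl1, C1qc and Muc1. Serpinh1 and Gfap were named outside this rule. Alternatives were equal medians, quantile normalization, floors at the 25th and 75th percentile (144.9 and 1510.9), a pseudocount of 50 with no floor, 1 value per gene and dropping marked probe sets. Counting was checked on simulated data. Python 3.11.15, numpy 2.4.6, pandas 2.3.3, scipy 1.17.1 and matplotlib 3.10.9 were used.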

Additional observations from a re-analysis of the deposited data

How the results depend on the processing

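Of 72 values recomputed, for 9 results under 8 alternatives, 60 stayed within 1.5 times the count or within 1 technical SD of the median, 12 moved, and none reversed. A reversal could be recorded only for the medians between t10,c12-CLA and control and between the isomers. Counts, and the median between c9,t11-CLA and control, could not be labelled so. The 4 probe sets 2-fold higher on t10,c12-CLA than on control became 2 with the brightest probe set per gene and 2 with the mean over probe sets, which take 9 values in place of 15. The 6 that were 2-fold higher on t10,c12-CLA than on c9,t11-CLA became 3 with the mean over probe sets and 3 with the higher floor, at the 75th percentile. That floor, which lies above many of these signals, also brought the median to 0.06 between t10,c12-CLA and control and 0.13 between the isomers. The single probe set 2-fold lower on c9,t11-CLA than on control became 2 with equal medians, 3 with the floor at the 25th percentile, 2 with the pseudocount and no floor, 0 with the floor at the 75th percentile and 0 with the mean over probe sets. The pseudocount also gave 1 probe set 2-fold higher on c9,t11-CLA, where there had been 0. Equal medians shifted the median of all measured probe sets by -0.20 between c9,t11-CLA and control and by 0.11 between the isomers, which turned the sign of the first Col1a1 probe set, from 0.05 to -0.14, and of Col4a2 between c9,t11-CLA and control. Signal over background was the limit for Col5a2, 2 probe sets of Col3a1 and 1 of Timp1, which stayed below the floor of 490.3 on every array. No paired analysis was possible because each diet had 1 array.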
